A study of Mus musculus with 18 samples.

Results

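The genes described here are 10 receptors with which macrophages and microglia recognise and take up sugars, sialic acids, lipoproteins and cell debris. They comprise 2 pattern lectins (Clec7a and Mrc1), 3 siglecs (Siglec1, Cd22 and Cd33) and 5 scavenger receptors or related proteins (Msr1, Cd36, Scarb1, Cd68 and Stab1). They were found by their symbols among the 23420 genes of the deposited count tables, and every one of the 10 was present. They were chosen by their family and by their fold changes between these 9 mice in an earlier reading of the data, so the counts of members that differ are a description of these mice and no test of the group as a whole.

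Retinal RNA was sequenced from 9 wild-type Balb/cJ mice in 3 groups of 3, each library made from the retinas of an individual animal. Naïve mice received neither light nor treatment. Vehicle mice were given DMSO and TD139 mice were given the galectin-3 inhibitor TD139 dissolved in DMSO, at 15 mg/kg, by daily intraperitoneal injection that began 1 day before light exposure. Both of these groups were dark-adapted, had their pupils dilated, and were exposed to white light of 15000 lux for 1 h, and their retinas were taken on day 4 after the light. Mice were 8 to 10 weeks old and of both sexes. A group of light-exposed mice without injections and a group of injected mice without light were not part of these samples, so vehicle mice differ from naïve mice in light, injections and DMSO together, and these cannot be told apart.

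Pattern lectins and scavenger receptors bind molecular shapes that are shared by microbes, oxidised lipids and dying cells, and many of them lead their ligand to the lysosome. Siglecs bind sialic acids on the surface of other cells, and several of them recruit phosphatases that restrain the activation of the cell that carries them. In the retina these receptors are carried mainly by microglia, the resident macrophages, and by macrophages that enter from the blood or lie along the vessels, whereas some scavenger receptors are also used by the retinal pigment epithelium, endothelium and glia. Bright light damages photoreceptors of albino mice, and microglia then leave the plexiform layers and gather where photoreceptors die.

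Promoters of members are shown because genes of macrophages are often served by the factor PU.1, whose core motif is GAGGAA. Promoter sequences of RefSeq (GRCm38.p6, 250 bases before to 50 after the start of the gene) were held for 7 of the 10 members, and Siglec1, Msr1 and Scarb1 had no entry. The RefSeq start lay within 22 bases of the GENCODE start of the gene for Clec7a, Mrc1, Cd68 and Stab1, but 1314 bases inside the gene for Cd22, 11257 for Cd33 and 52905 for Cd36, so that these 3 windows are those of another transcript start. GAGGAA, on either strand (TTCCTC on the other), occurred in 5 of these 7 promoters and in 28.3% of all 27025 promoters of the same length. The promoters of Cd22 and Cd36 had no such letters in this window. The AP-1 letters TGANTCA, which read the same on both strands, occurred in 7.93% of all promoters and among the members in that of Cd68. The motifs were chosen after the sequences had been seen, and a match is not a binding site. Written 5′ to 3′ on the strand of the gene, with the motif letters in capitals, the 250 bases before the start are given for Clec7a (chr6:129472780-129473029, minus strand), Cd68 (chr11:69666171-69666420, minus strand) and Stab1 (chr14:31168642-31168891, minus strand), in which GAGGAA begins at −96, −225 and −30 from the start. Cd68 also holds TGAGTCA at −149 and −24.
Clec7a: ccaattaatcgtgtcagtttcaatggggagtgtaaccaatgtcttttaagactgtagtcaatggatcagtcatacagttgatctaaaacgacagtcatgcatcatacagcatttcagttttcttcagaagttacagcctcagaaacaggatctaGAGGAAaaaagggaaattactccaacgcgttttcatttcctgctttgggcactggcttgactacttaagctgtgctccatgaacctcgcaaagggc
Cd68: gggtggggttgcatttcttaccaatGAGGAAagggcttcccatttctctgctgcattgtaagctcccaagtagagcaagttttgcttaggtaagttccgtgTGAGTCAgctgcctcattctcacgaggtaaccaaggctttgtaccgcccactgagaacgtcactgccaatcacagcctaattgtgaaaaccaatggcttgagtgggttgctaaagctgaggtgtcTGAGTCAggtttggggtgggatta
Stab1: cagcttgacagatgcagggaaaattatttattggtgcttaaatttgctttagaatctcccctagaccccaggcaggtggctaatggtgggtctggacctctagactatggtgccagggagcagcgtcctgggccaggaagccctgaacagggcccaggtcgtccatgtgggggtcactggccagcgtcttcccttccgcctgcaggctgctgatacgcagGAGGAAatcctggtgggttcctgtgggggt

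For Mrc1 and Cd33 a window of 30 bases around a match is given. The match in Cd33 begins at −226 (chr7:43533380-43533409, minus strand). Mrc1 holds 3 matches, all on the opposite strand, at −180, −167 and −35, and the last of these is shown (chr2:14229367-14229396, plus strand).
Cd33: acagtggaatggGAGGAAgccacaaagaag
Mrc1: aaaagggacagcTTCCTCtgtcctcctttt

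Each mouse had between 26171887 and 30201517 reads counted on genes, summed over 2 flow cell runs, and levels are given as CPM, the counts scaled by TMM to a common library size. A count of 3, taken as the floor of detection, stands for 0.101 to 0.119 CPM on this scale, and this covers counting error only. Across all tested genes, log2 fold changes of TD139 mice followed the length of the transcript, with a Spearman correlation of 0.49 against vehicle mice and 0.58 against naïve mice over 14287 genes, and of −0.11 for vehicle against naïve mice. These correlations are over genes, which are not independent. The retina label was met by rod markers, which summed to between 39474 and 77101 CPM.

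Vehicle mice were compared with naïve mice for the response of the retina to light. Of the 10 members, 9 had enough counts to be tested and Mrc1 had not. Clec7a, Siglec1, Cd22, Cd33 and Msr1 passed the filter on low counts through the vehicle mice, as they did not pass it with naïve and TD139 mice alone, so counts and medians over the tested members are a description. A total of 6 of the 9 rose in vehicle mice, namely Clec7a, Cd22, Msr1, Siglec1, Cd36 and Stab1 (adjusted p under 0.05 by edgeR's quasi-likelihood test with Benjamini-Hochberg adjustment over 15196 genes). Over all tested genes 7.8% passed this test in either direction, 4.91% as higher and 2.89% as lower in vehicle mice. Cd68, Cd33 and Scarb1 did not pass, although DESeq2 gave an adjusted p of 0.000763 for Cd68 and 0.0359 for Cd33, and both also passed with voom and with only these groups in the fit. For 8 members all vehicle mice lay above all naïve mice, which held for 16.7% of all tested genes, and for Scarb1 all vehicle mice lay below, which held for 16.6%, so that 33.3% of all tested genes were free of overlap. The median log2 fold change was 3.54 over the members and −0.00 over all genes. In whole retina, more cells of a type and more RNA per cell cannot be told apart, and 12 microglia markers summed to between 56.4 and 66.8 CPM in naïve mice and between 166 and 220 CPM in vehicle mice.

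TD139 mice were compared with vehicle mice for the effect of the inhibitor after light. A total of 5 of the 9 tested members fell, namely Msr1, Siglec1, Cd68, Cd36 and Stab1. Over all tested genes 33.4% passed in either direction, 16.2% as lower and 17.2% as higher in TD139 mice. Clec7a, Cd22, Cd33 and Scarb1 did not pass, although Clec7a did in DESeq2 and all 4 did with voom. For 6 tested members all TD139 mice lay below all vehicle mice, which held for 25.4% of all tested genes, beside 26% that were higher and 51.5% in either direction. The median log2 fold change over the members was −2.06, beside −0.02 over all genes. The microglia markers summed to between 47.3 and 100 CPM in TD139 mice, where mouse 1 was the highest. Both comparisons share the vehicle mice and are therefore not independent.

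TD139 mice were also compared with naïve mice. None of the 9 tested members passed in edgeR, where 5.1% of all tested genes did (2.72% higher and 2.38% lower), and for none of them were the groups free of overlap, which held for 32.2% of all genes. Clec7a and Cd33 had an unadjusted p under 0.05 in edgeR, for which the share of all genes was not taken. DESeq2 called Clec7a, beside 18.6% of all genes. With limma voom with quality weights Cd36 and Cd33 were called, beside 36% of all genes. With only these groups in the fit, 4 members had enough counts, with log2 fold changes of 0.91 for Cd68, 0.48 for Stab1, 0.39 for Cd36 and 0.01 for Scarb1. The values of the other 5 rest on few counts, such as 10 for Clec7a and 3 for Cd22 in naïve mice. The adjusted p-values of the 9 in edgeR, with all groups in the fit, ran from 0.123 to 0.975, which does not show that the groups were alike.

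**Figure D1:**
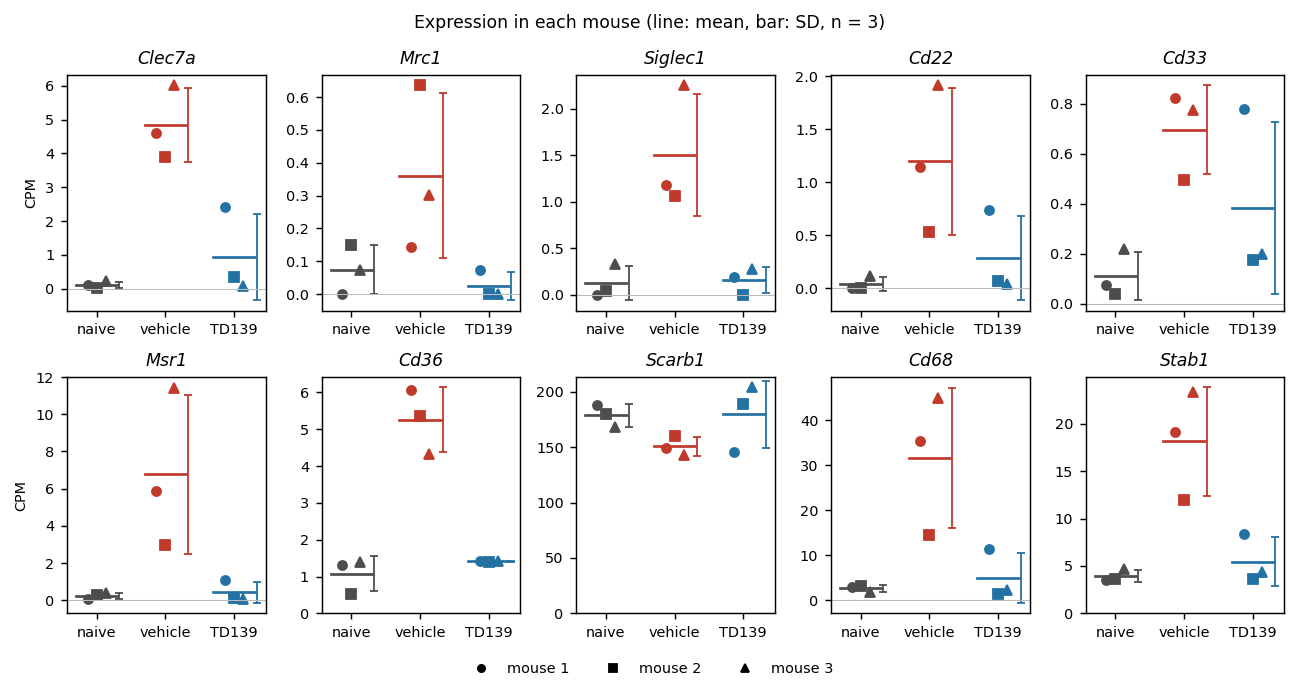
CPM of the 10 receptors in each mouse (vertical axis, linear, its range set for each gene), for naïve, vehicle and TD139 mice, with the mean as a line and the SD as a bar (n = 3) and the symbol giving the mouse number. Vehicle mice stand above naïve mice in 8 panels, TD139 mouse 1 is the highest of its group in 7, and Scarb1 is on a scale of its own, from 143 to 204 CPM, where the groups lie close together.

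Clec7a (ENSMUSG00000079293.11, chromosome 6, 129461591 to 129472779, minus strand, GRCm38) encodes dectin-1, a receptor for beta-glucans that signals through the kinase Syk and is a well-known gene of microglia around plaques and in degenerating tissue. It was at 0.115, 0.0377 and 0.220 CPM in naïve mice 1 to 3, at 4.61, 3.89 and 6.01 CPM in vehicle mice, and at 2.41, 0.348 and 0.0790 CPM in TD139 mice. Vehicle mice were all far above naïve mice, and TD139 mice spread from the naïve range up to more than any naïve mouse. The log2 fold change was 5.22 (SE 1.07, edgeR adjusted p = 0.0269) for vehicle against naïve mice, or 5.91 without naïve mouse 3, which held 6 of the 10 counts of naïve mice. For TD139 against vehicle mice the log2 fold change was −2.35 (SE 0.85, adjusted p = 0.0611 by edgeR), so that this difference missed the threshold although the 2 groups did not overlap. DESeq2 gave an adjusted p of 0.0134 for it. Against naïve mice TD139 mice differed by 2.88 (SE 1.10, edgeR adjusted p = 0.123), and DESeq2 gave an adjusted p of 0.0158 for this comparison. Mouse 1 held 65 of the 77 counts of TD139 mice, and without it the difference from naïve mice was 0.79.

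Mrc1 (ENSMUSG00000026712.3, chromosome 2, 14229392 to 14332057, plus strand) encodes the mannose receptor, also known as CD206, which in nervous tissue marks macrophages along vessels and at borders more than microglia. Its counts were 0, 4 and 2 in naïve mice, 4, 18 and 9 in vehicle mice, and 2, 0 and 0 in TD139 mice. Naïve and vehicle mice overlapped, and vehicle mouse 2 was the highest. The counts were too few to pass the filter. Without a filter the log2 fold change for TD139 against vehicle mice was −3.63 (edgeR adjusted p = 0.0428), and DESeq2 gave −3.87 (adjusted p = 0.0521). For vehicle against naïve mice DESeq2 gave 2.27 (adjusted p = 0.295, and 0.229 in edgeR without a filter). For TD139 against naïve mice the values were −1.43 and −1.60. The summed counts gave a ratio of 5.12 (95% counting interval 2.10 to 15.0) for vehicle to naïve mice and of 0.0645 (0.00748 to 0.253) for TD139 to vehicle mice. These intervals compare the summed libraries and leave out the spread between mice. A list of 8 perivascular macrophage genes summed to 15.4 to 20.6 CPM in naïve, 16.7 to 43.3 CPM in vehicle and 17.6 to 19.8 CPM in TD139 mice, with vehicle mouse 2 again the highest, Cd209f at 0 in all 9 mice and Cd163 at 0 in TD139 mice. Cbr2 alone made 25.1 CPM of the sum in vehicle mouse 2. In the other mice most of the sum was Lyve1. Lyve1 was at 14.3 to 15.2 CPM in naïve, 10.6 to 14.8 CPM in vehicle and 16.0 to 18.9 CPM in TD139 mice. Of the 4 genes of this list that were tested, Ms4a7 rose in vehicle mice by 5.82 on the log2 scale (edgeR adjusted p = 0.0324). With TD139 against vehicle Ms4a7 fell by 3.14 and Folr2 by 1.38, while Lyve1 rose by 0.43 (edgeR adjusted p = 0.0377, 0.0208 and 0.0456). Their part in the level of Mrc1 was not tested.

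Siglec1 (ENSMUSG00000027322.11, chromosome 2, 131069220 to 131086765, minus strand) encodes sialoadhesin, a siglec of macrophages that is known as a gene induced by interferon. It was at 0, 0.0377 and 0.330 CPM in naïve mice, 1.18, 1.06 and 2.25 CPM in vehicle mice, and 0.185, 0 and 0.277 CPM in TD139 mice. Naïve and TD139 mice covered nearly the same range, and all vehicle mice were above both. It rose by 3.54 on the log2 scale in vehicle mice (SE 0.93, edgeR adjusted p = 0.0453), or by 6.0 without naïve mouse 3, which held 9 of the 10 counts of naïve mice, and fell by 3.28 in TD139 against vehicle mice (SE 0.91, edgeR adjusted p = 0.0206). The difference between TD139 and naïve mice was 0.26 (SE 1.13, edgeR adjusted p = 0.902). The rise in vehicle mice missed the threshold without a filter and with the class by sex-linked genes in the model (edgeR adjusted p = 0.0706 and 0.0683). It passed under the other planned settings in which Siglec1 was tested.

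Cd22 (ENSMUSG00000030577.14, chromosome 7, 30865402 to 30880342, minus strand) encodes an inhibitory siglec that is best known from B cells and is also carried by aged microglia. Its counts were 0, 0 and 3 in naïve mice, or at most 0.110 CPM, while it was at 1.14, 0.530 and 1.92 CPM in vehicle mice and at 0.741, 0.0696 and 0.0395 CPM in TD139 mice. Vehicle mice were above all naïve mice, and TD139 mouse 1 lay above vehicle mouse 2. With 3 counts in naïve mice, the ratio of summed counts was 34.3 (95% counting interval 11.4 to 169) for vehicle to naïve and 7.59 (2.29 to 39.5) for TD139 to naïve mice. Mouse 1 held 20 of the 23 counts of TD139 mice, and the fitted log2 fold change against naïve mice was 2.78 (SE 1.37, edgeR adjusted p = 0.203), or 0.52 without this mouse. Cd22 rose in vehicle mice, with a fitted log2 fold change of 4.84 that depends on how a count of 0 is handled (SE 1.21, edgeR adjusted p = 0.0401). Without naïve mouse 3, which held all 3 counts of naïve mice, it was 8.05 (edgeR adjusted p = 0.0761). The value for TD139 against vehicle mice was −2.06 (SE 0.91, edgeR adjusted p = 0.102). B cell and T cell genes, a list of 9, summed to 1.39 to 2.15 CPM in naïve, 1.20 to 2.72 CPM in vehicle and 1.32 to 2.13 CPM in TD139 mice, with the B cell gene Ms4a1 at 0 in every mouse.

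Cd33 (ENSMUSG00000004609.11, chromosome 7, 43524216 to 43544428, minus strand) encodes a siglec of myeloid cells whose human counterpart is linked to the risk of Alzheimer's disease. It was at 0.0768, 0.0377 and 0.220 CPM in naïve mice, 0.822, 0.495 and 0.773 CPM in vehicle mice, and 0.779, 0.174 and 0.198 CPM in TD139 mice. The vehicle mice lay above the naïve mice, TD139 mouse 1 was within the vehicle range, and the other TD139 mice were within the naïve range. The log2 fold change was 2.58 (SE 0.74, edgeR adjusted p = 0.0541) for vehicle against naïve mice and −0.85 (SE 0.63, edgeR adjusted p = 0.305) for TD139 against vehicle mice. Both were smaller than those of Siglec1 and Cd22, and neither passed. Without naïve mouse 3, which held 6 of the 9 counts of naïve mice, the first of these values was 3.51. With at most 23 counts per mouse Cd33 was measured with little precision.

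Msr1 (ENSMUSG00000025044.16, chromosome 8, 39581685 to 39642673, minus strand) encodes the class A scavenger receptor of macrophages, which binds modified lipoproteins and amyloid. It was at 0.0768, 0.264 and 0.403 CPM in naïve mice, 5.90, 2.97 and 11.4 CPM in vehicle mice, and 1.08, 0.139 and 0.0790 CPM in TD139 mice. The lowest vehicle mouse was above every naïve and TD139 mouse, while vehicle mice differed widely among themselves. Msr1 rose by 4.74 on the log2 scale (SE 0.94, edgeR adjusted p = 0.0255) and fell by 3.96 with TD139 against vehicle (SE 0.88, edgeR adjusted p = 0.0120), the largest fall among the 9 tested members with all mice in the fit. Without TD139 mouse 3 that of Siglec1 was larger, at −3.98 beside −3.48 for Msr1. TD139 mice differed from naïve mice by 0.78 (SE 1.01, edgeR adjusted p = 0.646).

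Cd36 (ENSMUSG00000002944.15, chromosome 5, 17781690 to 17888801, minus strand) encodes a class B scavenger receptor for oxidised lipids and fatty acids that the pigment epithelium also uses when it takes up outer segments of photoreceptors. It was at 1.31, 0.528 and 1.39 CPM in naïve mice, 6.08, 5.37 and 4.33 CPM in vehicle mice, and 1.41, 1.39 and 1.42 CPM in TD139 mice. The TD139 mice were nearly equal and all of them lay below the vehicle mice, but their values rest on 38, 40 and 36 counts, whose counting error is wider than this spread. Cd36 rose by 2.28 (SE 0.34, edgeR adjusted p = 0.0127) and fell by 1.90 (SE 0.33, edgeR adjusted p = 0.00574), both on the log2 scale. TD139 mice differed from naïve mice by 0.39 (SE 0.34, edgeR adjusted p = 0.480), and voom gave 1.12 (adjusted p = 0.0203). Genes of the pigment epithelium, a list of 7, summed to 133 to 292 CPM in naïve, 258 to 513 CPM in vehicle and 152 to 219 CPM in TD139 mice. Best1 was at 0 in the last and at or below 0.168 CPM in every mouse. Of the 6 that were tested, 1 passed as higher in vehicle against naïve mice, beside 4.91% of all tested genes. With TD139 against vehicle 3 passed as lower, beside 16.2% of all tested genes. Their part in the level of Cd36 was not tested.

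Stab1 (ENSMUSG00000042286.13, chromosome 14, 31139013 to 31168641, minus strand) encodes stabilin-1, a large scavenger receptor of macrophages and of some endothelium. It was at 3.53, 3.58 and 4.65 CPM in naïve mice, 19.1, 12.01 and 23.4 CPM in vehicle mice, and 8.38, 3.62 and 4.35 CPM in TD139 mice. The vehicle mice stood apart from both other groups, and TD139 mouse 1 stood between them. Stab1 rose by 2.21 (SE 0.34, edgeR adjusted p = 0.0127) and fell by 1.74 (SE 0.33, edgeR adjusted p = 0.00651) on the log2 scale. Its exons overlap those of Nt5dc2 on the opposite strand, which had 604 to 1613 counts per mouse, and those of Cd22 overlap Gm29439 likewise. How the counting used strand is not given in the sources used here, so reads of these pairs may not be separated. Endothelial genes, a list of 8, summed to 238 to 313 CPM in naïve, 388 to 559 CPM in vehicle and 281 to 539 CPM in TD139 mice. Most of this sum was Kdr, at 138 to 211 CPM in naïve and 277 to 428 CPM in vehicle mice. None of the 8 passed in vehicle against naïve mice in edgeR, where Kdr and Flt1 had an unadjusted p under 0.05, which makes 2. Cldn5 and Egfl7 fell with TD139 against vehicle, by 0.71 and 0.55 (edgeR adjusted p = 0.0191 and 0.0248), and their part in the level of Stab1 was not tested.

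Cd68 (ENSMUSG00000018774.13, chromosome 11, 69664213 to 69666153, minus strand) encodes macrosialin, a glycoprotein of the lysosomes of macrophages. It was at 3.00, 3.24 and 1.76 CPM in naïve mice, 35.3, 14.4 and 45.1 CPM in vehicle mice, and 11.3, 1.32 and 2.29 CPM in TD139 mice. The vehicle mice were all above the naïve mice, but vehicle mouse 2 was much lower than the others of its group and TD139 mouse 1 came close to it. The log2 fold change was 3.57 (SE 0.88, edgeR adjusted p = 0.0553) for vehicle against naïve mice, just above the threshold, and Cd68 fell by 2.66 with TD139 against vehicle (SE 0.84, edgeR adjusted p = 0.0475), just below it. With the effect of transcript length and of GC content taken out in every mouse, these values were 3.46 (edgeR adjusted p = 0.0396) and −2.28 (edgeR adjusted p = 0.0849), so that both calls turned over. The fall also missed the threshold with library size alone, without a filter and with only the 2 groups compared (edgeR adjusted p = 0.0557, 0.0727 and 0.110). It missed it too with the class by sex-linked genes in the model (edgeR adjusted p = 0.0740). Under the other planned settings the fall of Cd68 passed.

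Scarb1 (ENSMUSG00000037936.15, chromosome 5, 125277087 to 125341094, minus strand) encodes the receptor for high-density lipoprotein, which takes up cholesterol esters and carotenoids and is found in many cell types besides macrophages. It was at 188, 180 and 168 CPM in naïve mice, 150, 160 and 143 CPM in vehicle mice, and 146, 189 and 204 CPM in TD139 mice. Vehicle mice lay below naïve mice, and TD139 mouse 1 lay within the vehicle range while the other TD139 mice were above it. The log2 fold change was −0.24 (SE 0.12, edgeR adjusted p = 0.210) for vehicle against naïve mice and 0.25 (SE 0.12, edgeR adjusted p = 0.120) for TD139 against vehicle mice. It was the only member with a sign opposite to the others in both comparisons, and neither difference passed.

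**Figure D2:**
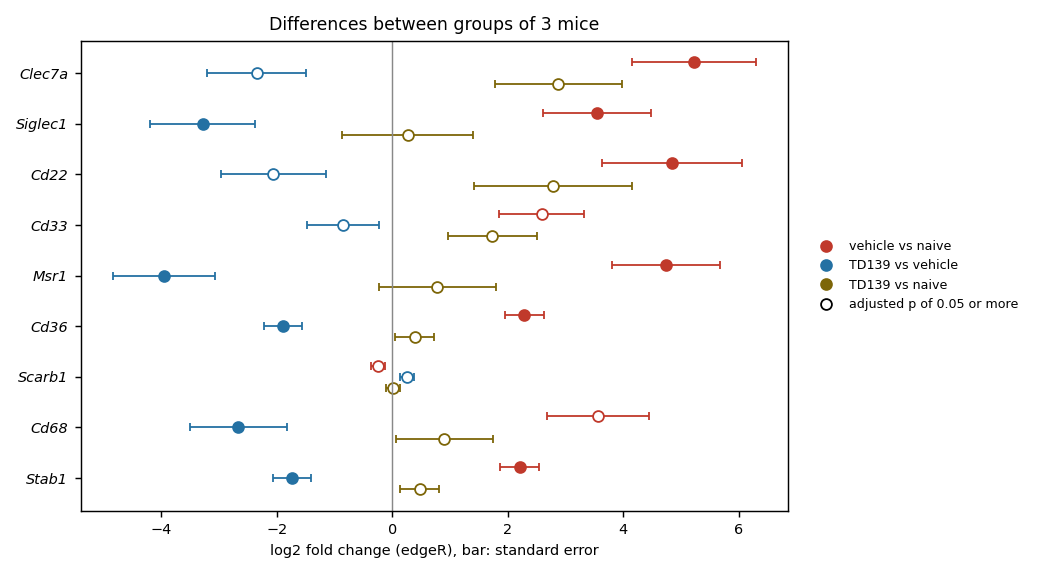
Log2 fold changes of the 9 tested receptors (horizontal axis) with their standard errors as bars, for vehicle against naïve, TD139 against vehicle and TD139 against naïve mice, with filled points for an adjusted p under 0.05 in edgeR. Filled points lie right of 0 for 6 receptors and left of 0 for 5, the values against naïve mice are all open, and Scarb1 lies near 0 throughout.

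Levels of the receptors were compared per kilobase of merged exons, and part of their order depended on this choice of length. In naïve mice Scarb1 was the highest at 21.0 ± 1.19 CPM per kb (SD, n = 3), followed by Cd68 at 2.12 ± 0.632, Stab1 at 0.381 ± 0.0616 and Cd36 at 0.300 ± 0.133 CPM per kb, and the 6 others were at or below 0.0471 CPM per kb. Stab1 and Cd36 overlapped, as did each pair of neighbours from Clec7a down. In vehicle mice Cd68 was at 25.1 ± 12.4 CPM per kb and overlapped with Scarb1 at 17.8 ± 1.00. Clec7a at 1.83 ± 0.410, Stab1 at 1.76 ± 0.557, Cd36 at 1.47 ± 0.244 and Msr1 at 1.07 ± 0.677 CPM per kb followed, each overlapping with the next. Cd22 at 0.237 and Siglec1 at 0.210 CPM per kb did not differ beyond their spread, and Cd33 at 0.0896 and Mrc1 at 0.0566 CPM per kb were the lowest. In TD139 mice the first 4 were Scarb1, Cd68, Stab1 and Cd36, as in naïve mice, at 21.1, 3.97, 0.530 and 0.392 CPM per kb, but Cd36 overlapped there with Clec7a at 0.358 ± 0.483 CPM per kb. Per kilobase of the longest transcript, an alternative chosen after the data had been seen, Scarb1, Cd68 and Stab1 were the first 3 in every group. In vehicle mice Scarb1 was then at 48.8 ± 2.76 and Cd68 at 25.7 ± 12.7 CPM per kb without overlap, and Stab1 at 2.27 stood before Clec7a at 2.12 CPM per kb, with overlap.

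TD139 mouse 1 stood apart from the other TD139 mice, which were close to each other. On a scale where the mean of naïve mice is 0% and that of vehicle mice is 100%, the median place over the 9 members other than Scarb1 was 29.98% for TD139 mouse 1, −1.67% for mouse 2 and 0.247% for mouse 3. In mouse 1, Cd33 lay at 114%, Cd22 at 60.8%, Clec7a at 48.5%, Stab1 at 31.3% and Cd68 at 29.98%, whereas Msr1 lay at 12.7%. Siglec1 lay at 4.57% and Mrc1 at −0.188% in this animal. These places rest on few counts in mouse 1, namely 2 for Mrc1, 5 for Siglec1, 20 for Cd22 and 21 for Cd33. They have no error given, so the places of siglecs and lectins cannot be compared. Cd36 lay at 7.96%, 7.55% and 8.29% in mice 1 to 3, so that mouse 1 did not stand out for it. Mouse 1 was the highest of its group for 7 of the 10 members and mouse 3 for the other 3, which were Siglec1, Cd36 and Scarb1.

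Markers of other cells in TD139 mouse 1 were as follows. Its microglia markers summed to 100 CPM, beside 55.2 and 47.3 CPM in the other TD139 mice. Monocyte genes, of which 6 of 7 were in the tables, summed to 13.5 CPM in this mouse and to 2.54 and 2.69 CPM in the others. Of these sums Vcan alone made 12.9, 1.77 and 2.17 CPM, whereas Ly6c2 was at 0.297, 0.626 and 0.316 CPM. The ranges were 1.503 to 8.48 CPM in naïve and 2.72 to 16.8 CPM in vehicle mice, with Ccr2 at 0 in naïve mice and Plac8 at 0 in TD139 mice. Neutrophil genes, of which 7 of 8 were in the tables, summed to 0.346 to 0.603 CPM in naïve, 2.61 to 3.19 CPM in vehicle and 0.418 to 2.11 CPM in TD139 mice, with mouse 1 again the highest, Csf3r making 1.85 CPM of its sum, and Retnlg at 0 in all mice. Melanocyte genes were at 45.7 CPM in TD139 mouse 1, above the other mice of its group. Pigment epithelium genes were at 219 CPM, beside 152 CPM in each of the others, and Mueller glia genes at 5655 CPM, beside 4732 and 4829 CPM, whereas rod genes were lowest in this mouse, at 56203 CPM beside 70008 and 63427 CPM. The endothelial sum of 539 CPM in this mouse was mostly Kdr, at 419 CPM beside 192 and 190 CPM in the others, and mouse 1 was the highest of its group for 6 of the 8 genes. Pecam1 was at 7.90, 8.14 and 6.64 CPM and Cdh5 at 3.08, 3.55 and 3.60 CPM in TD139 mice 1 to 3, where mouse 1 was not the highest. The part of these cells in the members' levels was not tested.

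Leaving out TD139 mouse 1 brought all 9 tested members past the threshold for TD139 against vehicle mice, where 38.4% of all tested genes passed in the same fit. The log2 fold changes then were −4.44 for Clec7a (edgeR adjusted p = 0.000683), −4.33 for Cd22 (edgeR adjusted p = 0.00707) and −1.89 for Cd33 (edgeR adjusted p = 0.0436). Over all 9 mice left out in turn, the adjusted p-values of these genes in edgeR ran up to 0.195, 0.289 and 0.628. Scarb1 was at 0.38 without this mouse (edgeR adjusted p = 0.0104, up to 0.396 over the mice left out). Msr1 was at −5.88 and Cd68 at −4.14 without it. The estimate of the spread is shared, so without TD139 mouse 1 the number of members called for vehicle against naïve mice was also higher, at 8, beside 12.8% of all tested genes. For TD139 against naïve mice the log2 fold changes without it were 0.79 for Clec7a, 0.52 for Cd22, 0.71 for Cd33, −1.13 for Msr1 and −0.56 for Cd68.

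The other mice changed the number of members called too, as they did for all genes, of which 0.00647 to 6.35% passed for vehicle against naïve mice and 10.5 to 35.8% for TD139 against vehicle mice in these fits. For vehicle against naïve mice, where 6 were called, leaving out naïve mouse 1, 2 or 3 gave 1, 0 and 3, and leaving out vehicle mouse 1, 2 or 3 gave 2, 6 and 2. Leaving out TD139 mouse 2 or 3 gave 7 and 5. For TD139 against vehicle mice, where 5 were called, it was 4 without any of the naïve mice, 4, 5 and 3 without vehicle mouse 1, 2 or 3, and 2 and 3 without TD139 mouse 2 or 3. For TD139 against naïve mice it was 0 in all 9 of these fits, of which 5 called no gene at all, those without naïve mouse 1 or 2, vehicle mouse 2, or TD139 mouse 2 or 3, so this 0 is no result about the members.

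The calls of single receptors also differed between these fits. For vehicle against naïve mice 0.591, 0.00647 and 1.41% of all genes passed without naïve mouse 1, 2 or 3. Without vehicle mouse 1 or 3 it was 1.62 and 0.547% of all genes. A call lost in those fits is therefore no result about the receptor alone. Cd36 and Stab1 stayed past the threshold in all 9 fits for TD139 against vehicle mice, with edgeR adjusted p-values of up to 0.0355 and 0.0375. For vehicle against naïve mice Cd36 missed it without naïve mouse 2 (up to 0.0651 in edgeR) and Stab1 without naïve mouse 1 or 2 (up to 0.0674 in edgeR). Clec7a, Cd22 and Msr1 missed it in that comparison without any of the naïve mice or without vehicle mouse 1 or 3. Siglec1 was called there in 3 of the 9 fits, those without naïve mouse 3, TD139 mouse 1 or TD139 mouse 2. Cd68 became called without vehicle mouse 2, TD139 mouse 1 or TD139 mouse 2, and Cd33 without TD139 mouse 1. For TD139 against vehicle mice, Msr1 missed the threshold without TD139 mouse 2, and Siglec1 without vehicle mouse 3, TD139 mouse 2 or TD139 mouse 3. Cd68 kept its call there only without vehicle mouse 2 or TD139 mouse 1.

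**Figure D3:**
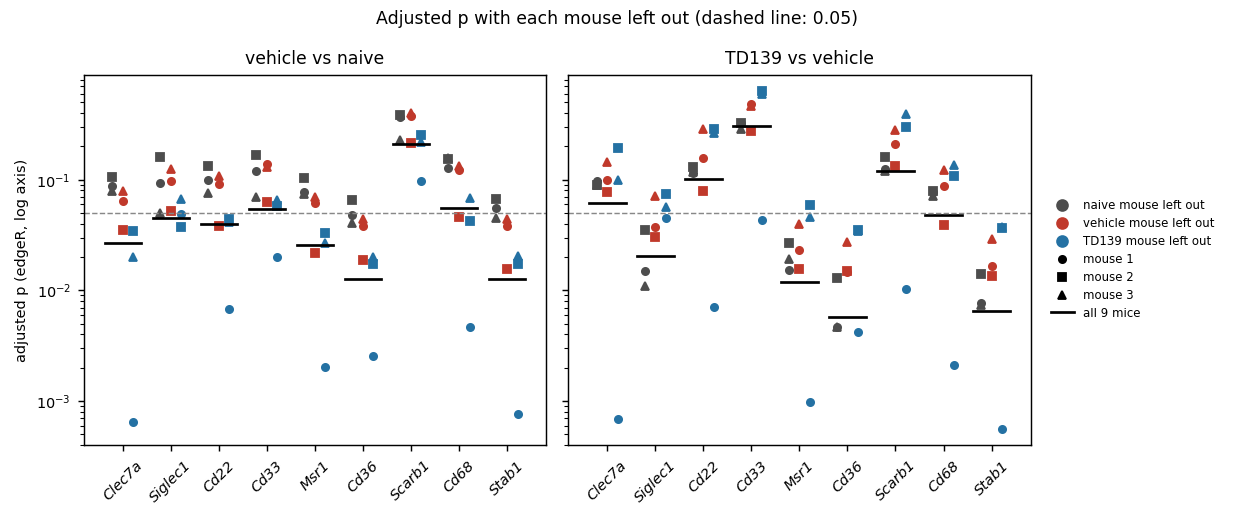
Adjusted p of the 9 tested receptors in edgeR (vertical axis, log scale) with all 9 mice as a black line and with each mouse left out as a point, coloured by the group and shaped by the number of that mouse, for vehicle against naïve mice (left) and TD139 against vehicle mice (right). All points of Cd36 and Stab1 lie under the dashed line at 0.05 on the right, and for most receptors the lowest point is the fit without TD139 mouse 1.

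Because microglia markers moved with the groups, the reads of each receptor were also set against 1000 reads of the 12 microglia markers in the same mouse, a measure chosen after the data had been seen and given without a test. On this scale Clec7a was at 1.73, 0.668 and 3.82 reads in naïve mice, 27.8, 17.6 and 32.2 reads in vehicle mice, and 24.0, 6.30 and 1.67 reads in TD139 mice. Vehicle mice still did not overlap with naïve mice, with means of 25.9 and 2.07 reads, and TD139 mouse 1 was within the vehicle range. Cd22, with means of 6.52 reads in vehicle and 0.637 in naïve mice, Msr1, with 36.7 and 4.28, and Cd68, with 173 and 44.3, were likewise free of overlap. For TD139 against vehicle mice Msr1 stayed apart, at a mean of 4.97 reads and 0.135 times the vehicle mean, and so did Mrc1, which rests on 2 counts in TD139 mice.

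The remaining receptors other than Scarb1 overlapped on this scale between vehicle and naïve mice. The vehicle mean was 3.74 times the naïve mean for Siglec1, 2.01 times for Cd33, 1.58 times for Cd36 and 1.49 times for Stab1, and the mice of both groups overlapped for each. For Cd36 the means were 17.7, 28.1 and 23.1 reads, and for Stab1 65.8, 98.2 and 80.3 reads, in naïve, vehicle and TD139 mice. Cd33 had a higher mean in TD139 mice (5.03 reads) than in vehicle mice (3.78 reads), with overlap. Scarb1 was at 2978 reads in naïve, 798 in vehicle and 3066 in TD139 mice, which is above the microglia markers together in the first and last of these groups. Olfml3 alone made 91.7 of the 220 CPM of the markers in vehicle mouse 2. Without this gene, with 11 markers left, a choice also made after the data had been seen, vehicle mice did not overlap with naïve mice for Siglec1 either, and TD139 mice were all below vehicle mice for Clec7a and Siglec1, while Cd36 and Stab1 still overlapped at 1.64 and 1.49 times the naïve mean.

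**Figure D4:**
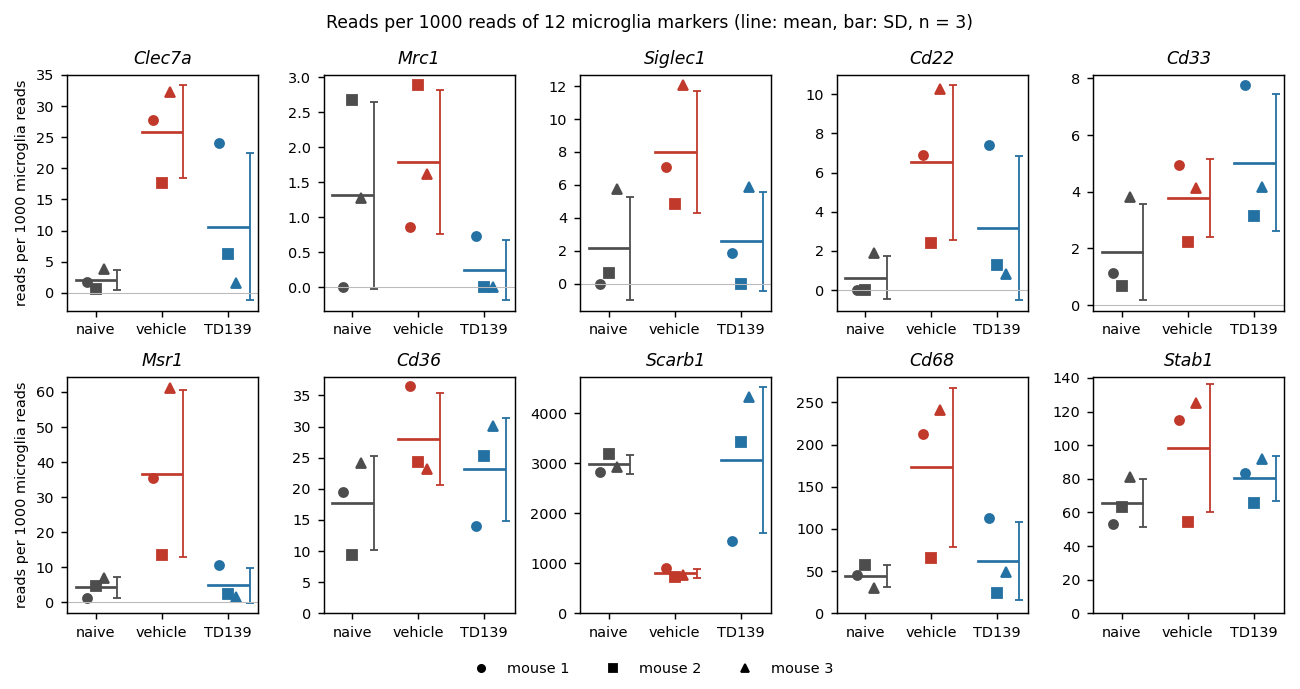
Reads of each receptor per 1000 reads of 12 microglia markers in each mouse (vertical axis, linear, its range set for each gene), with the mean as a line and the SD as a bar (n = 3). The vehicle mice stay above the naïve mice for Clec7a, Cd22, Msr1 and Cd68, overlap with them for Mrc1, Siglec1, Cd33, Cd36 and Stab1, and lie below them for Scarb1.

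The genes most like Clec7a over the 9 mice, by the root mean square difference of log2 CPM centred on each gene's mean, were Slc15a3 (0.467), Mpeg1 (0.530) and C3ar1 (0.702), among 13087 tested genes whose mean count was 50 or more. For Cd33 they were BC055402 (0.389), Cyp1b1 (0.459) and Slc7a11 (0.475), and for Scarb1 Ist1 (0.0511), Fam133b (0.0515) and Taf1a (0.0604). The small values for Scarb1 go with its small spread over the mice. Among the members themselves the closest pairs were Cd33 with Stab1 (0.494) and Cd36 with Stab1 (0.520). A small count was added before the logarithm was taken, which narrows the spread of genes with few reads. Cd33 is such a gene, with 1 to 23 counts per mouse, so its likeness to other genes is uncertain.

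Further genes of the same families and pathways were taken from lists. For these, too, the background was 7.8% of all tested genes for vehicle against naïve mice and 33.4% for TD139 against vehicle mice. Of 22 further C-type lectin receptors 10 were tested, and 1 rose in vehicle against naïve mice, which was Clec2d (log2 fold change 1.84, edgeR adjusted p = 0.0167). Clec2d, a ligand of receptors on natural killer cells, fell with TD139 against vehicle by 1.87 (edgeR adjusted p = 0.00568) and Cd302, an endocytic lectin, by 1.08 (edgeR adjusted p = 0.00756). Pla2r1, the receptor of secreted phospholipases, rose by 1.21 (edgeR adjusted p = 0.00641), which makes 3 of 10, near the share of all genes. Of 19 further scavenger receptors 14 were tested, and 5 passed in vehicle against naïve mice, all of them higher. Those with the highest level were Lrp1 (0.42, edgeR adjusted p = 0.0279), the hyaluronan receptor Cd44 (1.95, edgeR adjusted p = 0.0235) and Cxcl16 (1.43, edgeR adjusted p = 0.0463). With TD139 against vehicle 5 of the 14 passed, near the share of all genes in either direction, and all 5 were lower. Among these Cd44 fell by 1.54, Scara3 by 1.07 and Cxcl16 by 1.13 (edgeR adjusted p = 0.0131, 0.0260 and 0.0386). Against naïve mice 2 of the 14 passed, Lrp1 at 0.49 and Megf10, a phagocytic receptor of glia, at 0.80 (edgeR adjusted p = 0.0406 for both), beside 5.1% of all tested genes. Neither was called with the length and GC correction, with the replicate block, or in the 5 fits with a mouse left out that called no gene in this comparison.

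On the siglec side, 10 of 12 listed siglecs, phosphatases and sialic acid enzymes were tested. Ptpn6, the phosphatase SHP-1 that inhibitory siglecs recruit, rose in vehicle mice by 1.73 (edgeR adjusted p = 0.0384) and fell with TD139 by 1.83 (edgeR adjusted p = 0.0118). Siglece, an inhibitory siglec of mouse myeloid cells, went the other way from Siglec1 and Cd22 and fell in vehicle mice by 0.96 (edgeR adjusted p = 0.0255). The sialyltransferase gene St3gal1 fell in vehicle mice by 0.64 (edgeR adjusted p = 0.0299) and rose with TD139 by 0.70 (edgeR adjusted p = 0.00822). Cmas, which activates sialic acid, and the sialyltransferase gene St3gal4 fell with TD139 against vehicle, by 0.28 and 0.48 (edgeR adjusted p = 0.0335 and 0.0265). The list thus held 1 higher and 2 lower genes in vehicle against naïve mice and 1 higher and 3 lower in TD139 against vehicle mice, the latter near the share of all genes.

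A list of 12 signalling genes around Syk, the kinase of dectin-1, was tested whole. It includes Fcer1g and Tyrobp, adaptor chains of other receptors that dectin-1 does not need to reach Syk, and 4 genes passed in vehicle against naïve mice, all of them higher. These were Fcer1g, the gamma chain of Fc receptors (log2 fold change 3.54, edgeR adjusted p = 0.0393), the exchange factor Vav1 (3.11, edgeR adjusted p = 0.0180), the kinase Src (0.52, edgeR adjusted p = 0.0258) and the kinase Syk (2.90, edgeR adjusted p = 0.0349). With TD139 against vehicle 4 fell and 1 rose, beside 33.4% of all tested genes that passed in either direction. Those with the highest level among the 4 were Src (−0.53, edgeR adjusted p = 0.00814), Fcer1g (−2.67, edgeR adjusted p = 0.0305) and Inpp5d (−0.87, edgeR adjusted p = 0.0290), a phosphatase that limits this pathway. Malt1, which carries the signal on to NF-kappa-B, rose by 0.38 (edgeR adjusted p = 0.0236). Syk, at −1.59, had an adjusted p of 0.0762 in edgeR there.

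Among 12 genes of lipid uptake and handling, which act on what scavenger receptors bring in, 11 were tested, and 4 passed in vehicle against naïve mice, all of them higher. Apoe, the main apolipoprotein of nervous tissue, rose by 1.42 (edgeR adjusted p = 0.0486), Plin2, which coats lipid droplets, by 2.16 (edgeR adjusted p = 0.0168), and the lipase Lpl by 0.78 (edgeR adjusted p = 0.0196). With TD139 against vehicle 4 fell and 2 rose, beside 33.4% of all tested genes that passed in either direction. Apoe fell by 1.32 (edgeR adjusted p = 0.0236), Plin2 by 2.15 (edgeR adjusted p = 0.00568) and Lpl by 0.43 (edgeR adjusted p = 0.0397), while the lipoprotein receptor Vldlr rose by 0.83 (edgeR adjusted p = 0.00782) and the cholesterol exporter Abcg1 by 0.37 (edgeR adjusted p = 0.0143).

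Of the 12 microglia markers, 6 rose in vehicle mice and 7 fell with TD139 against vehicle. Over all tested genes 4.91% rose in the first comparison and 16.2% fell in the second. Of 8 rod genes, 6 fell in vehicle mice and 5 rose with TD139 against vehicle, and their sum was 68158 to 77101 CPM in naïve, 39474 to 54915 CPM in vehicle and 56203 to 70008 CPM in TD139 mice. The 8 Mueller glia genes summed to 4259 to 4882, 5821 to 6316 and 4732 to 5655 CPM in the same order. The 5 melanocyte genes summed to 16.5 to 40.8, 22.8 to 61.7 and 12.2 to 45.7 CPM. Reads of Y-linked genes exceeded those of Xist in 1 of 3 naïve, 2 of 3 vehicle and 2 of 3 TD139 mice, so each group held animals of both classes.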

How the data were processed

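RNA of whole retinas from 9 mice was sequenced from stranded poly(A) libraries with single reads on 2 Illumina flow cells. The authors deposited whole-number counts of reads per gene for each mouse and flow cell, made with BaseSpace RNA Express. The data statement of the study speaks of counts normalized with DESeq2, but the median-of-ratios size factors of the 18 tables held here ran from 0.876 to 1.15, where tables scaled in this way would be at 1, so the values were used as raw counts. The submitters' processing notes name mm10, and the annotation and strand setting of the counting are not given in the sources used here. Reads outside genes (16.5 to 22.8% per mouse) and ambiguous reads (0.303 to 0.471%) were left out. Those outside genes made 19.1 to 19.9% in naïve, 16.5 to 19.4% in vehicle and 21.3 to 22.8% in TD139 mice. What this difference does to the comparisons with TD139 mice was not tested.

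Both runs of a mouse were summed, giving 3 replicates per group. The groups were fitted together in edgeR 4.0.16 (R 4.3.3) after filterByExpr and TMM scaling, and tested with its robust quasi-likelihood F test, with Benjamini-Hochberg adjustment over 15196 genes and a threshold of 0.05. The standard error is the log2 fold change divided by the square root of F. The script was run on simulated data in which only genes with higher counts were changed, so that run does not cover members with few counts. With 3 mice per group the smallest p of an exact permutation test is 0.1. P-values measure the spread between individual mice.

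Positions and lengths came from GENCODE M21 on GRCm38, joined by symbol for 92.98% of the 23420 genes, and promoters from RefSeq. The members and gene lists were chosen with earlier results of these data known. All 10 members are named, and from each list up to 3 tested genes per direction with an adjusted p under 0.05 and the highest mean CPM. Syk was named after its value was seen, as were Lrp1 and Megf10 against naïve mice and the genes of marker lists. Some values of a marker gene are not reported here. For likeness, 3 genes each were sought for Clec7a, Mrc1, Cd33 and Scarb1, and Mrc1, which was not tested, has none. Alternatives were DESeq2 1.42.0, limma 3.58.1 (voom with quality weights), RLE scaling, library size alone, other filters, only the 2 groups compared, the replicate number as a block, single runs, a correction for transcript length and GC content (splines with 4 degrees of freedom), each mouse left out, and, chosen after seeing the data, the class by sex-linked genes in the model.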

Additional observations from a re-analysis of the deposited data

How the results depend on the processing

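The number of members called was 4 to 8 for vehicle against naïve mice and 4 to 6 for TD139 against vehicle mice under the other settings planned, beside 6 and 5, except that limma voom with quality weights called 9 for TD139 against vehicle mice. The share of all genes called was 46.2% with voom there, and otherwise 5.37 to 22.5% for vehicle against naïve and 21.6 to 36.3% for TD139 against vehicle mice over the planned settings. For TD139 against naïve mice DESeq2 called 1 member and voom 2, beside 18.6 and 36% of all genes, and all other settings called 0 of the 4 to 10 members that had an adjusted p, but the length and GC correction and the replicate block called no gene at all and the fit of only the 2 groups called 1. With the class by sex-linked genes in the model, chosen after seeing the data, 3 members were called for vehicle against naïve mice, beside 3.48% of all genes. With each mouse left out, the numbers ran from 0 to 8, from 2 to 9, and were 0 throughout. The replicate block gave 6, 6 and 0. Same-numbered mice did not deviate together (correlations of −0.259 to 0.282), so they share only a number.

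Directions held for vehicle against naïve and TD139 against vehicle mice wherever a member was tested. Cd33 was not tested with run 1 only, Siglec1 and Cd22 with run 2 only, and Cd22 and Cd33 with the filter on CPM, and Mrc1 was tested with DESeq2 and without a filter only. For TD139 against naïve mice, Siglec1 was at −0.68 with flow cell run 1 only and at −0.28, −0.13 and −0.42 without naïve mouse 1, naïve mouse 2 or TD139 mouse 3, up to 2.72 without naïve mouse 3. Msr1 was at −0.74 and Cd68 at −0.35 with voom, and at −1.13 and −0.56 without TD139 mouse 1, with highest values of 1.32 and 1.37 over the mice left out. Scarb1 was at −0.000257 with the replicate block, −0.00355 with the sex-linked class, and −0.03, −0.02 and −0.083 without naïve mouse 3, TD139 mouse 2 or TD139 mouse 3, up to 0.147 without TD139 mouse 1. The cause of these changes was not tested. With library size alone, the median over all genes shifted to 0.09 (log2) for vehicle against naïve and to −0.10 for TD139 against vehicle mice, and Scarb1 was at −0.15 and 0.16 there, opposite in sign to it. At the depth held, members with 23 counts or fewer in every mouse, Cd33 and Mrc1, allow no firm statement.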
